A study of Mus musculus with 4 samples.

Results

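The genes described here are 46 genes of the NF-kB feedback loop and of the immediate early response, of 20832 genes that had a named probe on the array. They were listed by name: the NF-kB subunits, the I kappa B proteins and other regulators that NF-kB switches on, the AP-1, Egr, Klf and Nr4a transcription factors, the Dusp phosphatases and genes of mRNA decay and growth arrest. They had 56 probes in all, 9 of the genes had more than 1 probe, and the brightest probe of each gene was used. The RNA came from BALF cells, the cells washed out of the airspaces of the lung, which the sample records call alveolar macrophages. Both wild-type and S1pr2-/- mice had received bleomycin, a drug that injures the lung, by intraperitoneal injection at 0.035 U/g on 2 occasions a week, and RNA was taken on day 22. There were 2 arrays per genotype, and saline-administered mice were not analysed here. The S1pr2-/- mice carry a targeted disruption of S1pr2 in every cell, on a mixed background that includes C57BL/6J, and the wild-type mice were their littermates. The mice were young adults. Whether an array holds cells of 1 mouse or of more is not given in the sources used here.

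NF-kB is a family of dimeric transcription factors held in the cytoplasm by I kappa B proteins until signals from cytokine or pattern recognition receptors lead to degradation of the inhibitor. Among the genes NF-kB switches on are its own inhibitors, such as Nfkbia and Tnfaip3, so that the pathway limits itself. Immediate early genes such as Fos, Jun and Egr1 are transcribed within minutes of a stimulus without new protein synthesis, mainly through MAP kinases that act on SRF and CREB, and the Dusp phosphatases in turn switch the kinases off. In macrophages both programs run together after inflammatory signals.

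The promoters of 4 members are printed with motif matches in capitals. Each is the 250 bases upstream of the RefSeq start of the gene on GRCm38.p6, in the direction of transcription. Ier3 had the largest difference on the arrays, Tnfaip3 and Nfkbia are classical inhibitors that NF-kB switches on, and Fos is the textbook immediate early gene. The windows are chr17:35821463-35821712 (plus strand) for Ier3, chr10:19015411-19015660 (minus strand) for Tnfaip3, chr12:55492648-55492897 (minus strand) for Nfkbia and chr12:85473640-85473889 (plus strand) for Fos. Tnfaip3 has 2 start sites in the table, and the window with more matches is shown.
Ier3: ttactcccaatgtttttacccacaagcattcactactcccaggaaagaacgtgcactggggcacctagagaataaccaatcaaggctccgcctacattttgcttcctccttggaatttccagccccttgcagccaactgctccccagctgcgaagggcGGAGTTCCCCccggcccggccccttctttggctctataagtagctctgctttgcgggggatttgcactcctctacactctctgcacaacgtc
Tnfaip3: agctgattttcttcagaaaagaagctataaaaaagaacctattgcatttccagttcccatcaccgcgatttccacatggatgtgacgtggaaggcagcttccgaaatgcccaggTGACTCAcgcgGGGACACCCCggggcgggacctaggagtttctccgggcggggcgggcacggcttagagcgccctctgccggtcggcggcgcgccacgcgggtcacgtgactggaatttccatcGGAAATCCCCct
Nfkbia: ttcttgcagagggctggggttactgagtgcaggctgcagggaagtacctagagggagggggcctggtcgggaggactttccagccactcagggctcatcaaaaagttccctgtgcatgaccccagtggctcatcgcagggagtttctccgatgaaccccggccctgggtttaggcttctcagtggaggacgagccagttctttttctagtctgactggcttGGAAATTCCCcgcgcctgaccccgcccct
Fos: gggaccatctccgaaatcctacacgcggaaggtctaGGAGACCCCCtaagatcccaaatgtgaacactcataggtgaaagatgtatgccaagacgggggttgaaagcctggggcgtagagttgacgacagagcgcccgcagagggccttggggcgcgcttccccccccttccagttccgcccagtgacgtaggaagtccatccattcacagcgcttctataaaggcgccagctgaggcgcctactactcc
The capitals mark a kappa B motif that begins 92 bases before the start in Ier3, 29 bases before it in Nfkbia and 214 bases before it in Fos. In Tnfaip3 they mark kappa B motifs at 125 and 12 bases and an AP-1 site at 136 bases before the start.

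A promoter window was found for 36 of the 46 genes, and 4 motifs were searched on both strands: the kappa B motif, the AP-1 site TGANTCA, the cyclic AMP response element TGACGTNA and the CArG box that SRF reads. A gene with several windows counted if any of them held the motif. The kappa B motif was in 13 of the 36 genes (36.1%), against 4.46% of 27025 genes in the same table. The members were listed partly as genes that NF-kB switches on, so this share was not independent of the choice of genes. These 13 were Nfkb2, Rel, Nfkbia, Nfkbid, Nfkbie, Tnfaip3, Tnip1, Tnip3, Ier3, Fos, Fosb, Fosl2 and Maff. The cyclic AMP element was in 7 genes (19.4%, against 2.92%), namely Rel, Nfkbid, Atf3, Maff, Dusp1, Dusp5 and Btg2. A CArG box was in 3 genes (8.33%, against 1.62%) and an AP-1 site in 3 (8.33%, against 7.82%). Members were also listed as immediate early genes, which act through SRF and CREB as described above. The shares of the cyclic AMP element and the CArG box were thus not independent of the choice of genes. Of the 17 tested genes with a window whose 2 S1pr2-/- values both lay below the wild-type ones, 8 held a kappa B motif, as did 5 of the 17 remaining tested genes with a window. In the same order the counts were 2 and 4 for the cyclic AMP element, 2 and 1 for the AP-1 site, and 1 and 1 for the CArG box. A link between motif and direction was not tested. A match is a run of letters and not a measured binding site. The Fos window holds TGACGTAG, which differs from TGACGTNA in its last letter and so was not counted. Elements farther upstream were not searched.

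Values on the arrays are log2 of the processed spot intensity over the 75th percentile of the array, so that a value of 0 is a signal at that percentile, and differences are S1pr2-/- minus wild-type. The targeted gene went against its label: in wild-type cells the S1pr2 probe gave -0.13 and -0.16, and in those labelled S1pr2-/- it gave 2.67 and 2.54. Whether the probe lies in the disrupted stretch is not given in the sources used here. Every direction here therefore rests on the labels. Probes of 7 of 7 macrophage markers and 9 of 9 alveolar macrophage markers were well above background on all 4 arrays, with median differences of -0.05 and -0.04. The members varied more between the wild-type arrays than genes did in general, with a median absolute difference of 0.178 against 0.120 over 15411 genes, and not more between the arrays labelled S1pr2-/- (0.115 against 0.118). With 2 arrays against 2, the smallest two-sided p of an exact permutation test is 0.333, so that no single gene could pass that test.

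Of the 46 genes, 43 could be compared. Egr3 was at the floor of -6.64 on all 4 arrays and not well above background on any, Nr4a3 was well above background on 1 array only, with its highest value at -6.55, and the Dusp5 spot on S1pr2-/- replicate 2 carried an outlier flag. These members were lower more often than higher: 35 of the 43 had a negative difference, against 49.5% of all genes, and the median difference was -0.18, against 0.00 over all genes. On both arrays labelled S1pr2-/- the signal lay below both wild-type arrays for 23 of 43 members (53.5%), against 21.9% of all genes, and above both for 1 (2.33%), Klf4, against 22.2%. Some of the 23 were barely apart. Tnip1 was at 4.059 on wild-type replicate 2 and 4.055 on S1pr2-/- replicate 1. Ier5 was at -0.213 on wild-type replicate 1 and -0.217 on S1pr2-/- replicate 1. The second probes of both genes overlapped. Such small gaps count in the shares over all genes as well. After Benjamini-Hochberg adjustment over all 27158 probes, limma called 0 members, as it called 0 of all genes (0%), and the adjusted p of the members lay between 0.508 and 0.991. At an unadjusted p under 0.05, 8 of 43 members were lower (18.6%, against 5.96% of all genes) and 0 higher (against 4.56%). Without S1pr2-/- replicate 2 the count of 8 became 2 (against 3.88% of all genes), and without S1pr2-/- replicate 1 it became 4 (against 4.01%). By the fold alone, 4 members were below 1/1.5 (9.30%, against 4% of all genes) and 0 above 1.5-fold (against 1.28%). The sizes were thus small for most members, and 39 of the 43 differed by less than 1.5-fold.

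**Figure D1:**
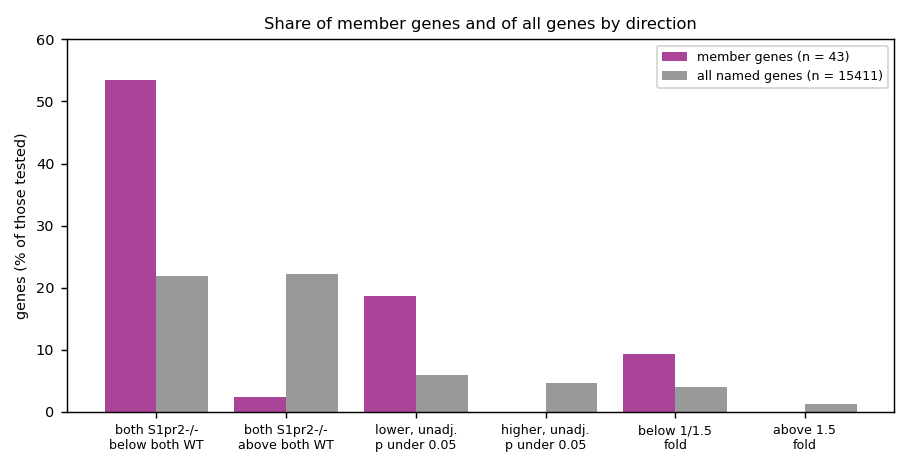
Share of genes in percent of those tested, for the 43 member genes (purple) and for all 15411 named genes (gray), by 3 criteria in each direction. The members exceed the general share for lower signals, at 53.5% against 21.9% for arrays that do not overlap, and fall short of it for higher signals, at 2.33% against 22.2%.

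**Figure D2:**
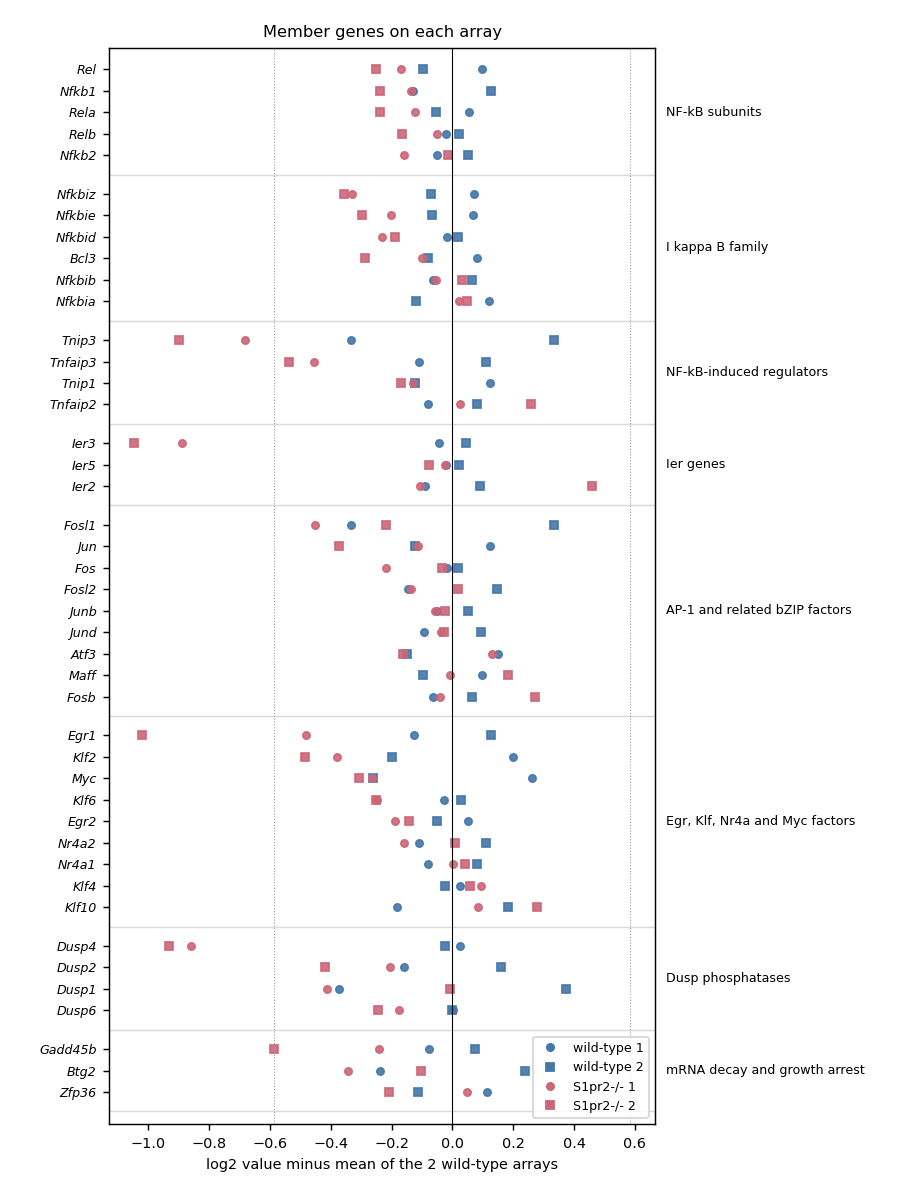
Log2 value of each of the 43 members on each array (circles replicate 1, squares replicate 2, blue wild-type, red S1pr2-/-), minus the mean of the 2 wild-type arrays, ordered by role, with dotted lines at 1.5-fold. The red symbols lie left of both blue ones for 23 genes, farthest for Ier3, Dusp4, Tnip3 and Egr1, and right of both for Klf4.

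The 5 subunits of NF-kB differed little. Rela, which encodes the p65 subunit that carries the main activation domain, was at 4.74 and 4.64 in wild-type and at 4.57 and 4.45 in S1pr2-/- cells, a difference of -0.18 (standard error 0.081). Nfkb1, the gene of p105 and p50, had -0.41 and -0.15 in wild-type and -0.42 and -0.52 in S1pr2-/- cells, a difference of -0.19 (standard error 0.120). Its second probe gave 0.02 (standard error 0.170), so that the probes of Nfkb1 differed in sign. Relb, a subunit of the non-canonical pathway, was at 1.11 and 1.15 against 1.07 and 0.96, and its partner Nfkb2 was at 0.24 and 0.34 against 0.13 and 0.28. The probe of Rel, the gene of c-Rel, was dim, at -6.17 and -6.37 against -6.44 and -6.52. For Rela, Nfkb1, Relb and Rel the genotypes did not overlap (80%, against 21.9% of all genes below), and for Nfkb2 they did. Nfkb1 was barely apart, at -0.411 on wild-type replicate 1 and -0.420 on S1pr2-/- replicate 1, and its second probe overlapped. Rel lay near the floor of -6.64. The differences of the 5 genes ranged from -0.21 to -0.09. At an unadjusted p under 0.05, 0 of the 5 passed (against 5.96% of all genes lower and 4.56% higher). For Rela the 95% interval of the difference reached from -0.43 to 0.07.

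Of the 6 I kappa B genes, 4 were lower on both arrays labelled S1pr2-/- (against 21.9% of all genes) and 2 overlapped. Nfkbia, which encodes I kappa B alpha, was at 4.0 and 3.76 in wild-type and at 3.90 and 3.93 in S1pr2-/- cells. Both latter values lay between the wild-type ones, and the difference was 0.04 (95% interval -0.30 to 0.37). Nfkbib, the gene of I kappa B beta, gave -0.01 on its brightest probe, which overlapped, while its dimmer probes gave 0.12 and 0.40, the last with both arrays labelled S1pr2-/- above both wild-type arrays (-2.13 and -2.29 against -1.98 and -1.63). The probes of Nfkbib thus did not settle a direction. Nfkbiz, an inducible nuclear I kappa B protein needed for a subset of secondary response genes such as Il6, was at -3.45 and -3.59 in wild-type and at -3.85 and -3.88 in S1pr2-/- cells, a difference of -0.34 (standard error 0.078, adjusted p = 0.508 from limma). Nfkbid, another nuclear member, was at 1.58 and 1.62 against 1.37 and 1.41, a difference of -0.21 (standard error 0.058, adjusted p = 0.514 from limma). In both, the spread within each genotype was smaller than the distance between them. Nfkbie, at -0.25, and Bcl3, a nuclear partner of p50 and p52, at -0.19, were also lower on both arrays labelled S1pr2-/- without passing an unadjusted p of 0.05.

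Tnfaip3 encodes A20, a ubiquitin-editing enzyme that shuts down signaling to the I kappa B kinase, and its promoter above carries 2 kappa B motifs. Its values were 1.77 and 1.99 in wild-type and 1.43 and 1.34 in S1pr2-/- BALF cells, so that the groups stood well apart. The signal was 1.41-fold lower (difference -0.50, standard error 0.106, adjusted p = 0.508 from limma). Tnip3, which encodes an A20-binding protein, was at -2.16 and -1.50 against -2.51 and -2.73, a difference of -0.79 (standard error 0.279, adjusted p = 0.533 from limma), or 1.73-fold lower. The size for Tnip3 rested on wild-type replicate 2, the highest of the 4 values: without it the difference was -0.46, and without wild-type replicate 1 it was -1.12. A dimmer probe of Tnip3 gave -0.43 with overlapping arrays. Tnip1, which encodes another A20-binding protein, had a difference of -0.15, and Tnfaip2, a TNF-inducible gene of membrane tubule formation, was at 0.14 (standard error 0.123).

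Ier3, an early response gene that affects cell survival downstream of NF-kB and MAP kinases, had the largest difference of the 43 members with all 4 arrays in the fit. It was at -1.35 and -1.26 in wild-type and at -2.19 and -2.35 in S1pr2-/- cells. The means were -1.31 ± 0.064 (SD, n = 2) and -2.27 ± 0.112 (SD, n = 2), so that the distance was several times the spread within either genotype. The signal was 1.95-fold lower (difference -0.97, 95% interval -1.24 to -0.70, adjusted p = 0.508 from limma). The unadjusted p of Ier3 was 0.0011 and was under 0.05 in the 14 alternatives with all arrays. With an array left out it was also under 0.05, but the lone array of a genotype is then assumed to vary like those of the other genotype. The difference lay between -1.05 and -0.83 over these 18 settings. Of the other Ier genes, Ier2 was at 0.18 (standard error 0.239), with S1pr2-/- replicate 2 as the highest array, and Ier5 at -0.05 (standard error 0.059).

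The AP-1 genes, whose products pair as Fos and Jun dimers, had small differences, with a median of -0.04. Fos was at 1.76 and 1.80 in wild-type and 1.56 and 1.75 in S1pr2-/- cells, a difference of -0.13 (95% interval -0.40 to 0.15). Its lower value came from S1pr2-/- replicate 1, while replicate 2 was next to wild-type. Jun was at 3.05 and 2.80 against 2.81 and 2.55, a difference of -0.24 (95% interval -0.69 to 0.21), with overlapping arrays. This group of 9 genes includes Atf3, a stress-induced repressor, and Maff, a small Maf protein. Fos was the 1 whose arrays did not overlap (11.1%, against 21.9% of all genes below and 22.2% above). At an unadjusted p under 0.05, 0 of the 9 passed (against 5.96% of all genes lower and 4.56% higher). The differences ranged from -0.33 for Fosl1 to 0.12 for Fosb. Junb and Jund, at -0.04 and -0.03, and Fosl2, at -0.06, had intervals that included 0. The second probe of Fosl2, much dimmer, gave -0.35. Fosl1 was at -5.15 and -4.49 in wild-type, so that its difference was smaller than the distance between the wild-type arrays.

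Egr1, a zinc finger factor and one of the fastest serum-induced genes, had the fourth largest difference of the members. Its values were -0.92 and -0.67 in wild-type and -1.28 and -1.82 in S1pr2-/- cells. The groups did not overlap, although the arrays labelled S1pr2-/- differed from each other by more than the wild-type arrays did. The signal was 1.68-fold lower (difference -0.75, 95% interval -1.47 to -0.03, adjusted p = 0.518 from limma), and it was -0.48 without S1pr2-/- replicate 2 and -1.02 without S1pr2-/- replicate 1. Egr2, a factor of macrophage and lymphocyte differentiation, was at -0.17 (standard error 0.069) with no overlap. Klf6 had a small difference with little spread, with 4.50 and 4.56 against 4.28 on both arrays labelled S1pr2-/-. This amounted to -0.25 (standard error 0.058, adjusted p = 0.508 from limma), 1.19-fold lower. Klf2, which restrains myeloid activation, was at 1.46 and 1.07 against 0.88 and 0.78, a difference of -0.43 (standard error 0.169). Klf4, which takes part in monocyte differentiation, was at 2.88 and 2.83 against 2.95 and 2.91. It was the 1 member above on both arrays, by 0.08 (standard error 0.059), and under normexp background correction no member was. Klf10, a gene induced by TGF-beta, was at 0.18 and overlapped. Of the nuclear receptors, Nr4a1 was at 0.02 (95% interval -0.23 to 0.28), and the probes of Nr4a2 gave -0.07 (-3.11 and -2.90 against -3.16 and -3.00) and 0.06 (-4.29 and -4.07 against -3.95 and -4.29), with overlap in each. Myc was at -0.29, with wild-type replicate 1 (-0.10) above the other 3 arrays, which lay between -0.67 and -0.62.

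The Dusp genes encode dual-specificity phosphatases that remove the activating phosphates from MAP kinases. Dusp4, whose product acts on ERK and other MAP kinases in the nucleus, was at -4.64 and -4.69 in wild-type and at -5.52 and -5.60 in S1pr2-/- cells. It was 1.86-fold lower (difference -0.90, 95% interval -1.09 to -0.70, adjusted p = 0.508 from limma), with the smallest unadjusted p of the members, 4.8e-04. The probe was dim, and its size depended on how low signals were treated: the difference was -0.53 under normexp background correction, and with a floor of 0.1 all 4 arrays were at the floor. Dusp6, a cytoplasmic phosphatase selective for ERK and itself induced by ERK, was at 2.97 on both wild-type arrays and at 2.79 and 2.73 on those labelled S1pr2-/-, a difference of -0.21 (standard error 0.060, adjusted p = 0.517 from limma). Dusp2, a nuclear phosphatase of immune cells, was at -0.31 (standard error 0.159) with no overlap. Dusp1, the glucocorticoid-inducible phosphatase of p38 and JNK, was at -0.71 and 0.04 against -0.74 and -0.34, and its difference of -0.21 changed sign without wild-type replicate 2 (0.16). Dusp5 was at -3.27, -3.24 and -3.36 on the 3 arrays without a flag, and the flagged spot read 2.50, which would put the difference at 2.83 (standard error 2.29). That spot was left out of the counts.

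Of the genes of mRNA decay and growth arrest, Gadd45b, a stress sensor induced by NF-kB, was at 1.63 and 1.78 against 1.47 and 1.12, a difference of -0.41 (standard error 0.157) with no overlap. Zfp36, which encodes tristetraprolin, the protein that destabilizes cytokine mRNAs with AU-rich elements, was at -0.08 (95% interval -0.52 to 0.36). Btg2, an antiproliferative gene, was at -0.22 and overlapped. Of these 3 genes 0 passed an unadjusted p of 0.05 (against 5.96% of all genes lower and 4.56% higher). Values on each array were given beyond the planned genes for members below that threshold and for some others, which were chosen after their values were seen.

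**Figure D3:**
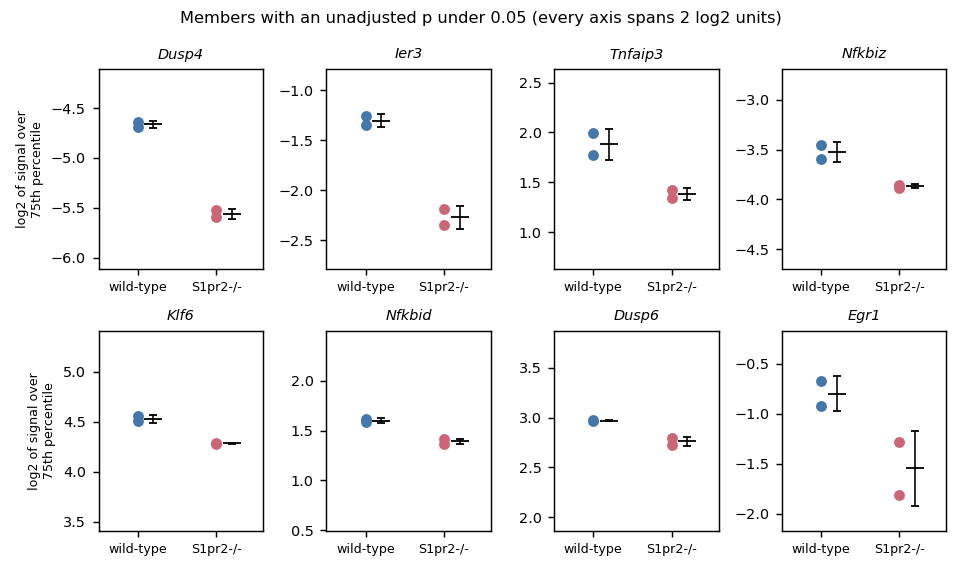
Log2 of signal over the array's 75th percentile for the 8 members with an unadjusted p under 0.05 from limma; points are arrays, and the bar beside them is the mean with the SD of 2 arrays. Every axis spans the same range, so that the distance can be compared between genes: it is largest for Ier3 (-0.97) and Dusp4 (-0.90) and smallest for Dusp6 and Nfkbid (both -0.21).

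**Figure D4:**
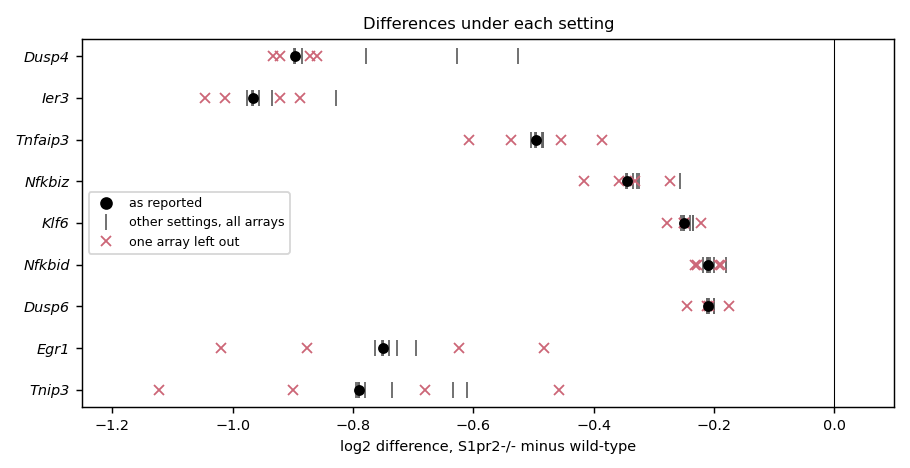
Difference in log2 units for the 8 genes and Tnip3 as reported (black), with other processing and all arrays (gray ticks) and with 1 array left out (red crosses). All values lie left of 0; those of Ier3 stay between -1.05 and -0.83, while those of Egr1 spread from -1.02 to -0.48 and those of Tnip3 from -1.12 to -0.46.

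The genes around the members were read from 6 lists. Their counts stand against the shares over all genes, 21.9% below and 22.2% above without overlap, and 5.96% lower and 4.56% higher at an unadjusted p under 0.05. Of 37 NF-kB signaling components, which carry the signal from receptors to the I kappa B kinase, 9 were below and 9 above without overlap (24.3% each, near the share over all genes), 5 were lower and 2 higher at an unadjusted p under 0.05, and the median difference was -0.01. The largest differences without overlap were those of Traf1 (-0.44), Traf2 (-0.29) and Birc3 (-0.24). The first 2 encode adaptors of TNF receptors and Birc3 a ubiquitin ligase recruited to them, and Traf1 and Birc3 are also known NF-kB targets. The kinases and factors upstream of the immediate early genes were split: of 26 genes of MAPK, SRF and CREB signaling, 9 were below, 7 above and 0 past an unadjusted p of 0.05, with a median of 0.03. Crem (-0.40), Mapk3 (0.26) and Mapk8 (0.19) had the largest differences without overlap there. The medians of both upstream lists thus lay nearer to that of all genes (0.00) than the median of the members did (-0.18), and the difference between the lists was not tested.

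Inflammatory genes that NF-kB controls were more often lower than higher. Of 28 such genes 25 could be tested: 13 were below (52%, against 21.9% of all genes) and 1 above (4%, against 22.2%) without overlap, 5 were lower (20%, against 5.96%) and 1, Vcam1 at 0.50, higher (4%, against 4.56%) at an unadjusted p under 0.05, and the median difference was -0.29. The largest were those of the cytokine Il6, at -3.81 and -3.34 against -5.51 and -5.10, of the chemokine Cxcl3 and of Il1b, with differences of -1.73, -1.71 and -1.51. Ccl4 (-1.48) and Csf1 (-1.37) were the other 2 below the threshold. All 5 genes lower at that threshold, and Nos2 (-1.06) among the 13 below, were picked by the study from these arrays. The shares of 20% and 52% count these genes, so these shares are no independent evidence of a direction. Outside that selection, the chemokine genes Cxcl10 (-0.59), Ccl3 (-0.36) and Cxcl1 (-0.29), with Gbp2 (-0.56), Cd40 (-0.44), Il1a (-0.13) and Sod2 (-0.11), were also lower on both arrays without passing an unadjusted p of 0.05. Tnf, at 0.12 (standard error 0.191), and Icam1, at -0.09, overlapped.

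Of 12 further feedback inhibitors of MAP kinases, 11 could be tested, and 3 were lower (27.3%, against 5.96% of all genes) and 1 higher (9.09%, against 4.56%) at an unadjusted p under 0.05, with a median of -0.07. The phosphatase gene Dusp10 (-0.67), Spred2 (-0.38) and Errfi1 (-0.33) were the lower ones, and Dusp7 (0.28) the higher one. Of 32 other immediate and delayed early genes, 16 were below (50%, against 21.9% of all genes) and 4 above (against 22.2%) without overlap. At an unadjusted p under 0.05, 6 were lower (18.8%, against 5.96%) and 2, Sik1 at 0.44 and Rhob at 0.40, higher (6.25%, against 4.56%), and the median was -0.13. Hbegf (-0.89) and Areg (-0.52), ligands of the EGF receptor, and the transcription factor Nfil3 (-0.55) had the largest differences. A list of heat-shock genes, which respond to protein damage and to stress of the cells, leaned the same way: of 11 tested genes, 11 had a negative difference, 9 did not overlap (81.8%, against 21.9% of all genes) and 5 had an unadjusted p under 0.05 (45.5%, against 5.96%), but the differences were small, with a median of -0.20 and the largest for Hspb1 (-0.37) and Hsp90aa1 (-0.32). The part of such stress in the lower member signals was not tested.

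**Figure D5:**
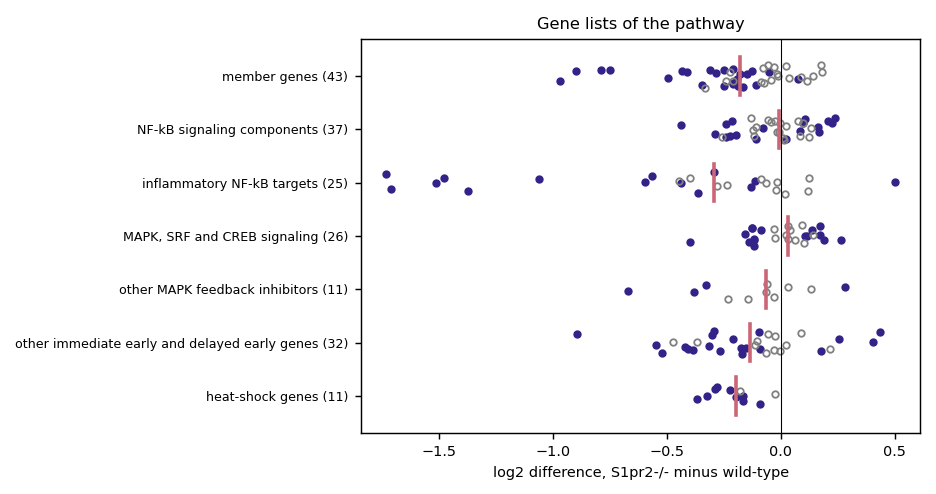
Difference in log2 units (S1pr2-/- minus wild-type) of each gene in the members and in 6 lists, with the number of genes tested in brackets; filled points are genes whose arrays do not overlap between genotypes, and the red bar is the median. The medians lie near 0 for signaling components (-0.01) and for MAPK, SRF and CREB signaling (0.03), and at -0.18 for the members and -0.29 for the inflammatory targets.

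Signals of markers of some other cell types differed with the labels. In bulk RNA, fewer cells of a type and less RNA per cell cannot be told apart. Eosinophil markers were lower on both arrays labelled S1pr2-/- for 6 of 6 tested genes, with a median difference of -4.50. Their summed signal, in multiples of the 75th percentile, was 6.05 and 14.6 in wild-type cells and 2.36 and 3.69 on those labelled S1pr2-/-. Most of the sum on the arrays labelled S1pr2-/- was Ear6 (log2 values 1.16 and 1.80), which had a difference of -0.79. The other tested markers had differences from -5.58 for Gata1 to -3.73 for Il5ra. For single markers, 21.9% of all genes lay below and 22.2% above without overlap. Neutrophil markers were lower for 5 of 7 tested genes, with sums of 84.1 and 93.9 against 67.7 and 58.9, and T cell markers for 4 of 8. The neutrophil markers were uneven. Csf3r, the brightest of them, was at -0.28 and Retnlg at -4.81, while S100a8 (0.25) and Camp (-0.11) overlapped. Macrophage sums were 343 and 359 against 343 and 335. Markers of monocyte-derived macrophages had a median difference of 0.58, with 3 of 7 above and 1 below without overlap, but their sums overlapped (207 and 140 against 208 and 161). Dendritic cell markers were below for 3 of 7 and epithelial markers for 5 of 8, and erythroid markers were above for 3 of 4. Of 5 B cell markers 0 were below and 0 above, and of 6 NK cell markers 1 was below, with a median of -0.01. Markers of fibroblasts and endothelium were above for 3 of 6 and below for 1. Of 7 mast cell and basophil markers, Mcpt8, Fcer1a, Ms4a2 and Cma1 were not well above background on any array, while Kit and Tpsb2 were on all 4, with differences of 0.13 and -0.19. The part of these cells in the lower member signals was not tested.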

How the data were processed

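Total RNA of BALF cells was measured on 4 one-color Agilent whole mouse genome arrays, 2 per genotype, on 1 slide. The authors deposited Feature Extraction output, with a background-corrected intensity per spot (the headers name version 11.0.1.1, the submitters' processing notes 10.7.3.1), and a table of log2 values normalized in GeneSpring, used only as an alternative. Processed intensities were scaled to the 75th percentile of their array (2489 to 2817 units), floored at 0.01 and log2-transformed. Spots with an outlier flag (115 to 273 per array) were left out, and 0 were saturated. Probes were named through RefSeq accessions of GRCm38.p6 (69.6% of 39429), and the array design uses another build. The 27158 probes with 4 values that rose well above background on every array of at least 1 genotype were fitted with limma 3.58.1 in R 4.3.3 (lmFit, eBayes) with Benjamini-Hochberg adjustment. The fit was tested on simulated data. Percentages over all genes use the brightest probe of 15411 named genes. Same-numbered replicates are not stated to be paired, nor whether arrays hold separate animals, so that p-values measure only the spread between these samples. Precision is limited by the array number.

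Every member is named. Values on each array were planned for members that differed by 1.5-fold or more without overlap, for the NF-kB subunits, Nfkbia, Tnfaip3, Fos, Jun and Egr1, and where probes of a gene disagreed; in each pathway list, the 3 largest differences without overlap were planned. The members and lists were chosen with earlier results of these data known. Alternatives were other scalings (quantile, cyclic loess, or the percentile of detected probes), normexp (on the median signal, leaving control spots with a flagged background out of its fit), the authors' log2 table, other floors and filters, flagged spots kept, the methods' t-test, a trended variance, the replicate block, the mean over probes, and each array left out.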

Additional observations from a re-analysis of the deposited data

How the results depend on the processing

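Under every alternative run 0 members passed an adjusted p of 0.05, and 28 of 43 members kept their sign in all of them. The 8 members lower at an unadjusted p under 0.05 became 5 with a floor of 0.1, at which Dusp4, Nfkbiz, Fosl1 and Rel were at the floor on all arrays and gave no value (Rel also with the percentile over detected probes), and between 2 and 7 with an array left out. The median difference of -0.18 became -0.11 with that floor and ranged from -0.17 to -0.13 with an array left out. The 1 member above both wild-type arrays became 0 under normexp (against 19.5% of all genes) and 2 with the mean over probes (against 22.3%). With an array left out this count was between 1 and 8. Members below both, 23, were between 17 and 23 with all arrays (against 16.2% to 24.5% of all genes) and between 26 and 33 without one. With an array left out 3 arrays are compared, and the shares over all genes were higher as well (32.9% to 38.4% below and 32.6% to 39.2% above). Members above 1.5-fold, 0, became 1 in the authors' log2 table and with flagged spots kept, in both by the flagged Dusp5 spot. Members below 1/1.5 were between 3 and 6, and members higher at an unadjusted p under 0.05 stayed at 0, with an array left out.

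Signs changed for Nr4a2 (0.0022) and Junb (0.018) under quantile normalization and for Nfkbib (0.17) with the mean over probes. With an array left out, the differences ranged from -0.060 to 0.104 for Nr4a1, -0.086 to 0.157 for Nfkbia, -0.125 to 0.061 for Jund, -0.58 to 0.16 for Dusp1, -0.46 to 0.016 for Btg2, -0.17 to 0.13 for Atf3, -0.18 to 0.035 for Nr4a2, -0.0097 to 0.18 for Maff, -0.21 to 0.046 for Zfp36, -0.078 to 0.053 for Nfkbib, -0.21 to 0.089 for Fosl2, -0.093 to 0.010 for Junb, -0.0011 to 0.37 for Klf10, -0.041 to 0.27 for Fosb and -0.11 to 0.46 for Ier2. Not all of these members were near 0 with all arrays in the fit as reported: Dusp1 was at -0.21, Btg2 at -0.22, and Klf10 and Ier2 at 0.18. The cause of the sign changes was not tested.

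Same-numbered replicates shared only a number (correlation of their deviations across probes 0.187, over 2 pairs). With the replicate block, limma again called 0 members, and 8 were lower at an unadjusted p under 0.05 (against 5.51% of all genes). Of these 8, 5 were shared with the fit without the block. Jun, Klf2 and Nfkbie entered, and Dusp6, Egr1 and Nfkbid left. Low signals limit Dusp4, Nfkbiz, Fosl1 and Rel.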
